A study of Mus musculus with 6 samples.

Results

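The 10 genes described here encode parts of the mitochondrial respiratory chain, its assembly, the fusion of mitochondria, the import of proteins and fatty acids into them and the removal of peroxides. They were chosen by name: Ndufs8, Ndufb4, Cox8a, Cox17, Atp5j, Atp5o, Opa1, Tomm70a, Cpt1a and Prdx5. All 10 had a row in the deposited table, which has 15734 gene rows, and all were among the 13329 rows with a mean of at least 10 that were tested. They lie on mouse chromosome 16 or within the first 10 Mb of chromosome 19. The choice was by position and function, and it was made with earlier results of these data known.

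The study sequenced polyadenylated RNA from the cranial tissue of single mouse embryos at embryonic day 9.5, taken above the pharyngeal arches and otic vesicles. The mutant group holds 3 embryos with msp3 on both copies of Smarcc1. That gene makes BAF155, part of the core of BAF, an enzyme complex that moves nucleosomes. The wild-type group holds 3 homozygous wild-type embryos, and both groups have a mixed C57BL/6J and 129/SvImJ background. Per the labels the mutants have neural tube defects, and the embryos were matched for somite number, given as 19-21 with the samples and as 21-23 with the series. The msp3 allele is germline, so every tissue of the mutant embryo carries it.

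The respiratory chain passes electrons from NADH to oxygen through the inner mitochondrial membrane, and ATP synthase uses the resulting proton gradient to make ATP. Nearly all of its subunits are encoded in the nucleus, made in the cytosol and carried through import pores into the organelle. Genes of this system are transcribed in nearly every cell type, often from promoters that bind ETS factors such as GABP, NRF1, YY1 or the nuclear receptor ERR alpha. Proliferating cells of the early neural tube rely strongly on glycolysis, while still using mitochondria for biosynthesis and ATP.

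Values are normalized read counts, that is, reads per gene row after the authors' scaling of each library. The rows of the 3 mutant libraries held 66637742, 63132575 and 82067578 reads, and those of the 3 wild-type libraries 46170743, 64024789 and 58847350. Over the whole table, 3 of 13329 rows passed an adjusted p of 0.05 in limma, which is 0.0225% of those tested. Mutant 2 stood apart from the other libraries: it lay at -44.1 on the first principal component, which held 36.02% of the variance, and the other 5 libraries lay between -3.38 and 20.3. The Smarcc1 row held 35870, 52563 and 35022 in the mutants, against 42915, 62563 and 50066 in wild type, with a log2 difference of -0.34 and a limma adjusted p of 0.49. That row lies outside the stretches, described below, where row levels were taken to fit the gene names. The rows around it were not examined, so it does not check the genotype labels. The labels describe separate embryos, and the p-values measure the spread between those embryos.

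Row levels were taken to fit the gene names for 8 of the 10 genes. The stretches taken to fit were chromosome 16 up to about 94 Mb and chromosome 19 up to 6.8 Mb. No outside measure of expression was compared, gene by gene. Of 5 rows there named for respiratory chain or ATP synthase subunits, 4 averaged 1000 or more, against 11 of 49 such rows elsewhere. The limits of these stretches were set from the row levels themselves, so the fit within them is a description. The rows named Prdx5 and Cox8a lie just beyond the chromosome 19 stretch, and there the pattern broke. Next to Prdx5, the row named Trmt112, for an activator of methyltransferases found in most cells, averaged 22.7 ± 5.86 (SD, n = 6 libraries). Next to Cox8a, the row named Otub1, for a ubiquitin protease found in most cells, averaged 24.6 ± 7.90, whereas the rows named Macrod1 and Flrt1 just before Otub1 averaged 69758 ± 2525 and 42905 ± 2293. The premise that names fit the rows therefore did not hold for Prdx5 and Cox8a, and these are called rows named Prdx5 and Cox8a from here on.

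**Figure D1:**
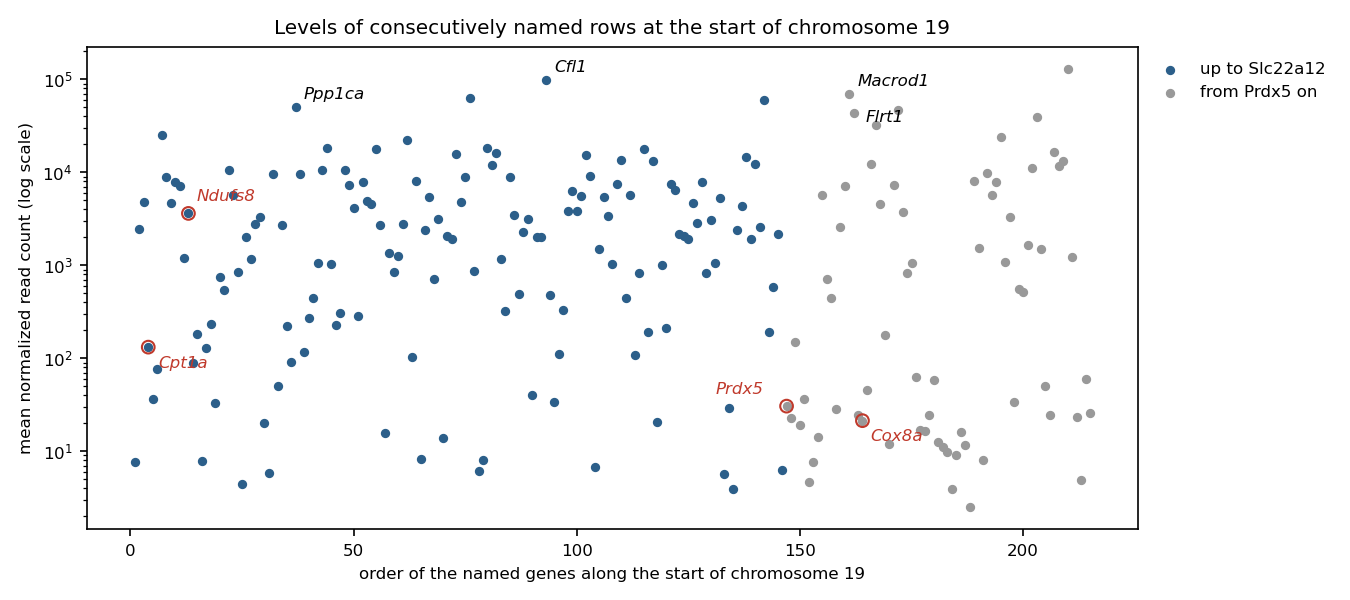
Mean normalized read count over the 6 libraries (log scale) of consecutively named rows at the start of chromosome 19, in gene order, with Cpt1a, Ndufs8, Prdx5 and Cox8a circled. Ndufs8 averaged 3612 among rows taken to fit their names. The rows named Prdx5 and Cox8a averaged 30.6 and 21.3, with rows named Macrod1 at 69758 and Flrt1 at 42905 a short way before Cox8a.

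Promoter letters are shown for the genes whose start regions held a motif of a factor known for mitochondrial genes. The windows are the 250 bases before the start site in the RefSeq table of GRCm38.p6, searched on both strands, for the genes other than Cox17. The motif letters were CCGGAAG for ETS factors, GCGCATGCG for NRF1, TNAAGGTCA for ERR alpha, AAGATGGCG for YY1 and TATAAA for the TATA box. Each line gives 30 bases around a match, 5′ to 3′ on the strand of the gene, and the capitals mark the motif or its reverse complement.
Ndufb4 (ERR alpha, chr16:37654406-37654435, minus strand): ttcctgagccTGAAGGTCAgactcgagagg
Atp5j (ETS, chr16:84835019-84835048, minus strand): agctgagggacCCGGAAGcacttaccctcc
Atp5j (YY1, chr16:84835045-84835074, minus strand): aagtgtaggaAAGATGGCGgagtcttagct
Opa1 (NRF1, chr16:29579265-29579294, plus strand): gtggctccccGCGCATGCGcatgtcatccg
Tomm70a (ETS, chr16:57121623-57121652, plus strand): gccttctgaccCCGGAAGtggttctcccct
Tomm70a (ETS, chr16:57121684-57121713, plus strand): gtctagcccggcatgccccgggCTTCCGGt
Of 32851 RefSeq promoter windows of the same length, 6.91% held the ETS letters, 1.45% those of NRF1, 1.14% those of ERR alpha, 0.606% those of YY1 and 12.4% TATAAA. The Opa1 window ends at chr16:29579333, while the gene as placed below begins at chr16:29579281, so its listed start site lies inside the gene. In Opa1 the NRF1 letters began 59 bases before that listed site. They began again at 58 on the other strand, since the stretch reads nearly alike on both strands. The Ndufb4 match began 57 bases before the start. Tomm70a held its ETS letters at 80 and at 8 bases before the start. Atp5j has 2 start sites in the table, and its ETS and YY1 matches lie before the inner of them, at 61 and 88 bases. They are also in the window of Gabpa, which encodes the DNA-binding subunit of GABP and is transcribed from the same stretch in the other direction. The ETS letters were also in the window of Prdx5, and the windows of Ndufs8, Atp5o, Cpt1a and Cox8a held none of the motifs. The Cpt1a window, chr19:3323051-3323300, lies inside the gene as placed below, from chr19:3322326, so the bases before that outer start were not searched. A match is a description of the sequence, and no binding was measured here.

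Complex I, the NADH dehydrogenase, takes electrons from NADH. Ndufs8, which holds iron-sulfur clusters in the arm that passes electrons on, lies on the minus strand at chr19:3908863-3912774 (GRCm38). Its normalized read count was 3517, 4118 and 3491 in the mutants, against 3287, 3472 and 3786 in wild type. Mutant 2 was the highest of the 6 libraries, and the groups overlapped. Ndufs8 averaged 3709 ± 355 in mutants and 3515 ± 252 in wild type (SD, n = 3 each), a log2 difference of 0.08 (SE 0.09, 95% interval -0.13 to 0.28, limma adjusted p = 0.75).

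Ndufb4, an accessory subunit of the membrane arm of complex I, lies on the minus strand at chr16:37647602-37654368. It held 936, 1470.4 and 844 in the mutants, against 821, 782 and 779 in wild type. All 3 mutant values lay above all 3 wild-type values, with mutant 2 far above the rest and mutant 3 close to wild type 1. Ndufb4 averaged 1084 ± 338 in mutants and 794 ± 23.3 in wild type, with a log2 difference of 0.41 (SE 0.19, 95% interval -0.02 to 0.83). The limma adjusted p was 0.47, and the two-sided exact permutation p was 0.1, the smallest that 3 against 3 embryos allow. Without mutant 2 the log2 difference was 0.16, with a limma adjusted p of 0.54. The ratio of Ndufb4 to Ndufs8, both subunits of complex I, was 0.266, 0.357 and 0.242 in the mutants, against 0.250, 0.225 and 0.206 in wild type, and the groups overlapped (exact permutation p = 0.2).

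Cytochrome c oxidase, complex IV, hands the electrons to oxygen and needs copper to do so. Cox17, a small copper chaperone that passes copper on for its assembly, lies on the plus strand at chr16:38346983-38352763. Its counts were 2621, 3158 and 2491 in the mutants, against 2262, 2372 and 2296 in wild type. Every mutant library lay above every wild-type library, with the wild-type embryos close together. Cox17 averaged 2757 ± 353 in mutants and 2310 ± 56.7 in wild type, with a log2 difference of 0.25 (SE 0.10, 95% interval 0.02 to 0.47). Its unadjusted limma p was 0.034 and its adjusted limma p was 0.43, and the exact permutation p was 0.1. Without mutant 2 the log2 difference was 0.15, with a limma adjusted p of 0.45.

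ATP synthase, complex V, was represented by 2 genes of its peripheral stalk, which holds the catalytic head still while the rotor turns. Atp5j, which encodes coupling factor F6, lies on the minus strand at chr16:84827871-84835857. It held 12087, 15191 and 11482 in the mutants, against 11984, 11887 and 11945 in wild type. Mutant 2 was the highest, mutant 3 the lowest, and mutant 1 lay next to the closely spaced wild-type values. Atp5j averaged 12920.1 ± 1990.2 in mutants and 11939 ± 48.9 in wild type, a log2 difference of 0.10 (SE 0.10, 95% interval -0.12 to 0.33, limma adjusted p = 0.69).

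Atp5o, which encodes the oligomycin sensitivity conferring protein that joins the stalk to the head, lies on the minus strand at chr16:91925223-91931630. Its counts were 17204, 21820 and 16585 in the mutants, against 16814, 16524 and 17226 in wild type. The pattern over libraries was like that of Atp5j: mutant 2 lay alone at the top, and the other 5 libraries lay together. Atp5o averaged 18537 ± 2860.2 in mutants and 16855 ± 353 in wild type, a log2 difference of 0.13 (SE 0.10, 95% interval -0.10 to 0.35, limma adjusted p = 0.63). The ratio of Atp5j to Atp5o, whose proteins sit in the same stalk, was 0.703, 0.696 and 0.692 in the mutants, against 0.713, 0.719 and 0.693 in wild type. That ratio moved little in any library, mutant 2 included, and its groups overlapped (exact permutation p = 0.3).

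Opa1, a dynamin-like GTPase that fuses inner mitochondrial membranes and keeps cristae in shape, lies on the plus strand at chr16:29579281-29663127. It held 13225, 12777 and 13801 in the mutants, against 13847, 13754 and 14315 in wild type. Mutant 2 was the lowest library, and mutant 3 lay above wild type 2, so the groups overlapped. Opa1 averaged 13267 ± 514 in mutants and 13972 ± 301 in wild type, a log2 difference of -0.08 (SE 0.06, 95% interval -0.21 to 0.05, limma adjusted p = 0.61).

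Tomm70a, the outer membrane receptor that takes hydrophobic precursor proteins from cytosolic chaperones, lies on the plus strand at chr16:57121714-57154530. Its counts were 32677, 32508 and 33613 in the mutants, against 38165, 34002 and 33484 in wild type. Wild type 1 stood above the other 5 libraries, and mutant 3 lay above wild type 3. Tomm70a averaged 32933 ± 595 in mutants and 35217 ± 2566 in wild type, a log2 difference of -0.09 (SE 0.06, 95% interval -0.24 to 0.05, limma adjusted p = 0.57). Without wild type 1 the log2 difference was -0.04.

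Cpt1a, which loads long-chain fatty acids onto carnitine for entry into mitochondria and is the main form in liver, lies on the plus strand at chr19:3322326-3385735. It held 213, 101 and 131 in the mutants, against 102, 107 and 136 in wild type. Mutant 1 was high and mutant 2 was the lowest library by a small margin, so the groups overlapped. Cpt1a averaged 148 ± 58.1 in mutants and 115 ± 18.3 in wild type, a log2 difference of 0.31 (SE 0.27, 95% interval -0.31 to 0.93, limma adjusted p = 0.66). That difference was 0.01 without mutant 1 and 0.55 without mutant 2.

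The row named Prdx5, the symbol of a peroxiredoxin that removes peroxides in mitochondria and peroxisomes, held 30.7, 35.5 and 15.5 in the mutants, against 37.1, 31.95 and 32.6 in wild type. Its log2 difference was -0.38 (SE 0.34, 95% interval -1.15 to 0.39, limma adjusted p = 0.66), and it was -0.03 without mutant 3 and -0.60 without mutant 2. The row named Cox8a, the symbol of a small subunit of complex IV, held 35.4, 13.2 and 17.7 in the mutants, against 15.1, 21.3 and 25.3 in wild type. Its log2 difference was 0.01 (SE 0.41, 95% interval -0.91 to 0.94, limma adjusted p = 0.99). The groups overlapped in both rows, and neither row is read here as the level of the gene it names.

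**Figure D2:**
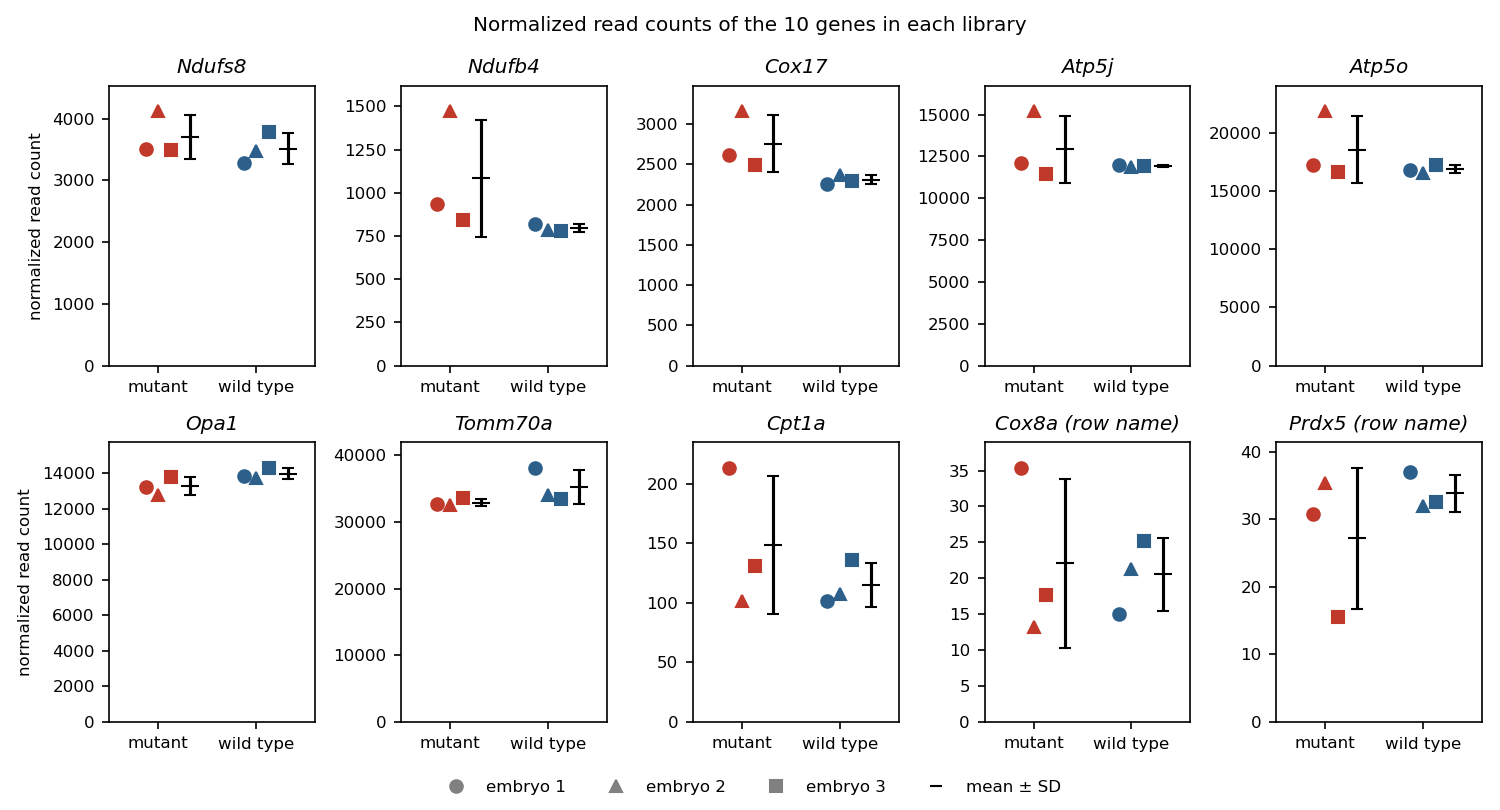
Normalized read count (linear axes from 0) of each gene in the 3 mutant and 3 wild-type libraries, with the mean and SD beside each group. Ndufb4 and Cox17 have every mutant value above every wild-type value, and mutant 2, the triangle, is at the top for Ndufs8, Ndufb4, Cox17, Atp5j and Atp5o, for example at 1470.4 for Ndufb4.

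Levels between genes were compared per kilobase of the principal transcript. Atp5o was the highest, with 22120.0 ± 3413 normalized reads per kb in mutants and 20113 ± 421 in wild type. Atp5j followed at 17412 ± 2682 per kb in mutants and 16090.0 ± 65.9 in wild type, and lay below Atp5o within every library, although its highest library, 20474 per kb, exceeded the lowest of Atp5o, 19719. Tomm70a, Ndufs8 and Opa1 came next, at 5522 ± 99.8, 3785 ± 362 and 2130 ± 82.4 per kb in mutants, and 5905 ± 430, 3587 ± 257 and 2243 ± 48.3 per kb in wild type. Cox17 stood at 1334 ± 171 per kb in mutants and 1117 ± 27.4 in wild type, and Ndufb4 at 1116 ± 348 in mutants and 818 ± 23.97 in wild type. The highest library of Ndufb4, 1514 per kb, exceeded the lowest of Cox17, 1094, so that pair is not ordered beyond its spread. Cpt1a was far lower, at 34.4 ± 13.5 per kb in mutants and 26.6 ± 4.23 in wild type.

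None of the 10 genes passed an adjusted p of 0.05 in limma, and 1, Cox17, had an unadjusted p under 0.05, against 10.8% of all rows tested in either direction and 5.31% with higher mutant values. No gene of the 10 passed with edgeR, where 0.015% of rows did, with array quality weights in limma, where 0.45% did, or with DESeq2, where 1.38% did and which gave no adjusted p for the rows named Prdx5 and Cox8a. In 2 of the 10, Ndufb4 and Cox17, all mutant values lay above all wild-type values, against 8.69% of all rows. In 0 of the 10 did all mutant values lie below, against 10.4% of all rows. The log2 difference was above 0 for 7 and below 0 for 3, with a median of 0.09. Over all 13329 rows tested, 6518 were above 0 and the median was -0.0047. For the 8 genes whose rows fit their names, 6 were above 0 and the median was 0.11. Of all 641 tested rows of those stretches, 351 were above 0 and the median was 0.02. In bulk tissue, fewer cells of a type and less RNA per cell cannot be told apart.

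**Figure D3:**
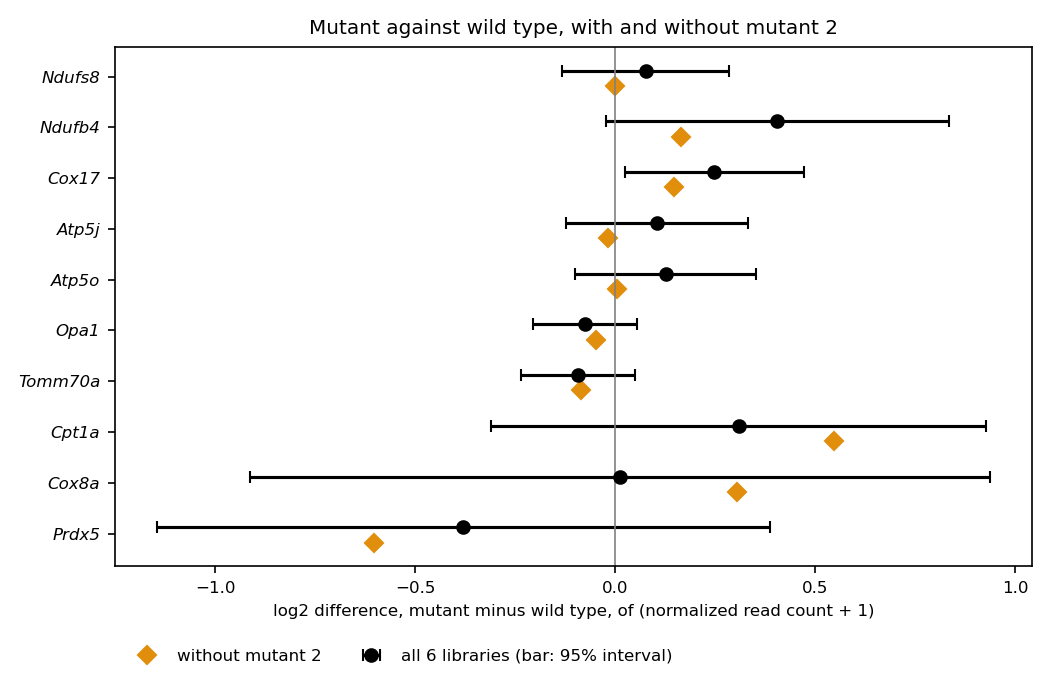
Log2 difference, mutant minus wild type, of each gene with its 95% interval from limma over all 6 libraries, and the value without mutant 2. The interval for Cox17, 0.02 to 0.47, lies above 0 before adjustment over all rows, and those of the other 9 include 0.

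Among the 8 genes with fitting names, mutant 2 was the highest library for 5 and the lowest for 3. Over all rows it was the highest in 27.9% and the lowest in 30.5%, so its values were often at an end. The direction followed transcript length. Mutant 2 minus the mean of the other 5 libraries was 0.82 on the log2 scale for Ndufb4, 0.36 for Atp5j and 0.37 for Atp5o, all with principal transcripts under 1 kb. It was -0.11 for Opa1, -0.08 for Tomm70a and -0.39 for Cpt1a, whose transcripts are 6230, 5964 and 4317 bases long. Ndufs8, at 980 bases, had 0.23, and Cox17, at 2067 bases, had 0.39.

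The same gradient ran through the other rows of these stretches. Of 37 rows with transcripts under 1 kb, 34 (91.9%) were higher in mutant 2 than in the mean of the others, with a median deviation of 0.35, and 48 of 159 rows (30.2%) with transcripts of 4 kb or more were, with a median of -0.10. The 28 short rows that encode none of the mitochondrial genes listed here had a median of 0.36, close to the values of Atp5j and Atp5o. The deviation of Ndufb4 lay above the ninth decile of the short rows, 0.55, and that of Ndufs8 below their median. The deviation of Cox17, 0.39, lay above the ninth decile of the rows of 2 to 4 kb, 0.31, whose median was 0.09. Across 545 rows, Spearman's rho between transcript length and the deviation was -0.52 in mutant 2, as a description across genes that share each library. It was between 0.06 and 0.38 in the other 5 libraries. The mean that each of those was compared with includes mutant 2, so their values are tied to its trend. With mutant 2 left out, the median log2 difference of the short rows was 0.00096 in place of 0.11. The part of transcript length in the values of the 8 genes was not tested.

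**Figure D4:**
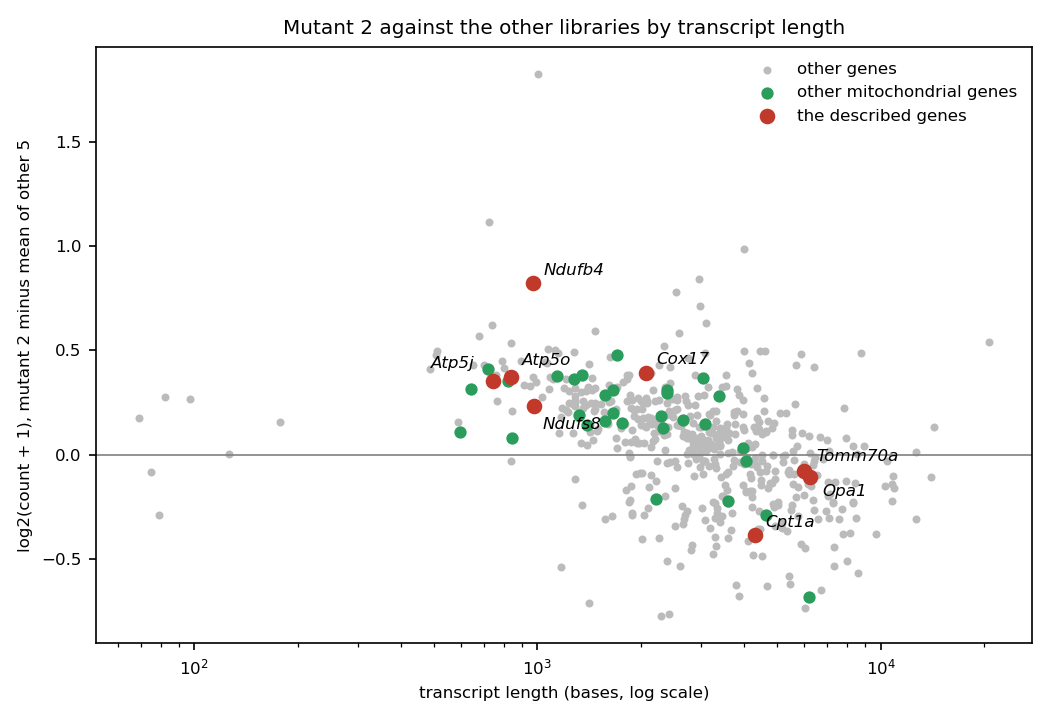
Deviation of mutant 2 from the mean of the other 5 libraries, in log2(normalized read count + 1), against principal transcript length (log scale), for rows of the stretches where names fit. Short transcripts lie mostly above 0, with Ndufb4 at 0.82, and long ones mostly below, with Cpt1a at -0.39.

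Without mutant 2, Atp5j, Atp5o and Ndufs8 had log2 differences of -0.019, 0.0034 and -0.0020. Tomm70a stood at -0.09 with and without it, and Opa1 at -0.05 without it, against -0.08 with all 6 libraries. For Cox17, mutants 1 and 3 had 2621 and 2491 against at most 2372 in wild type, and for Ndufb4 936 and 844 against at most 821. Leaving out a mutant cannot undo an order in which all mutants lie above wild type, so that order is no check on mutant 2. The log2 difference fell from 0.25 to 0.15 for Cox17 and from 0.41 to 0.16 for Ndufb4.

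A further 30 mitochondrial genes from 7 lists lie where rows fit their names. None of the 30 passed in limma (smallest adjusted p = 0.47, against 0.0225% of rows called). Of the 30, 23 had a log2 difference above 0 and 7 below, with a median of 0.05, against 351 above 0 of all 641 tested rows of these stretches. Mutant 2 was the highest library for 23 of the 30. Without it 13 were above 0 and 17 below, with a median of -0.01.

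Among other respiratory chain genes, 3 of 3 had log2 differences above 0. Ndufv1, the complex I subunit that binds NADH, had 0.10, and the complex I assembly factors Timmdc1 and Tmem186 had 0.16 and 0.15. On the list for protein import and chaperones 5 of 5 were above 0. Among them were Pam16, part of the motor that pulls precursors into the matrix, at 0.11, and the matrix chaperone Trap1 at 0.05. Mpv17l, on this list but not read here as an import gene or chaperone, had 0.20. Without mutant 2, 3 genes of this list were above 0 and 2 below. Mitochondrial translation had 6 above 0 and 1 below, with the ribosomal protein genes Mrpl11 at 0.11, Mrpl21 at 0.08 and Mrpl40 at 0.06. Without mutant 2, all 7 translation genes were below 0, with a median of -0.05. Of the genes of fusion, fission and Opa1 processing, 3 of 3 were above 0: Fam162a at 0.21, the inner membrane protease Parl at 0.03 and the fission GTPase Dnm1l at 0.01. Without mutant 2, 2 of these were above 0 and Parl stood at -0.12, while the 3 respiratory chain genes were all above 0.

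Metabolism and carriers had 2 above 0 and 4 below, with proline dehydrogenase Prodh at 0.16, the citrate carrier Slc25a1 at 0.12 and pyruvate carboxylase Pcx at -0.04; without mutant 2 it had 4 above 0 and 2 below. The antioxidant enzymes were above 0 in 4 of 4, with the glutathione transferase Gstp1 at 0.16, the superoxide dismutase Sod1 at 0.10 and the mitochondrial thioredoxin reductase Txnrd2 at 0.06. Without mutant 2, 1 antioxidant gene was above 0 and 3 below, with a median of -0.02. Both regulators of mitochondrial genes were below 0. Gabpa held 13976, 12540.4 and 14701 in the mutants, against 15268, 14477 and 14845 in wild type, a log2 difference of -0.12 (limma adjusted p = 0.55). Nrip1, a corepressor of nuclear receptors, held 7070, 4696 and 7241 in the mutants, against 8071, 7678 and 7662 in wild type. Nrip1 was the only gene of the 30 with all mutant values below all wild-type values, against 10.4% of all rows, and its log2 difference was -0.33 (limma adjusted p = 0.47) and -0.12 without mutant 2.

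**Figure D5:**
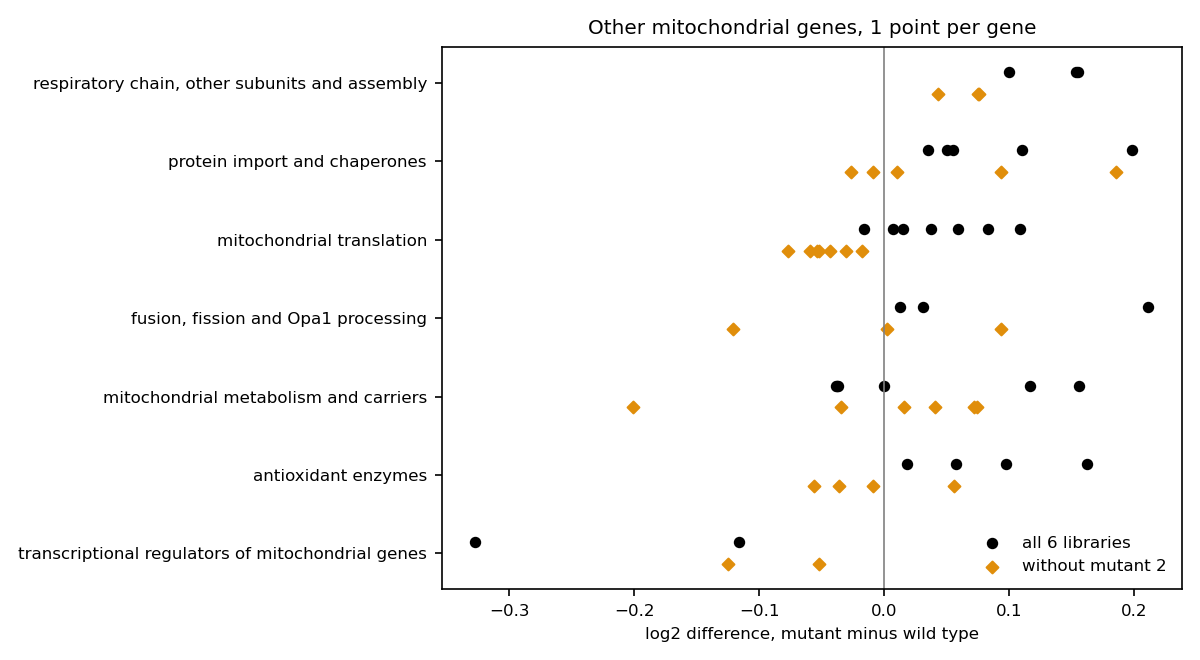
Log2 difference, mutant minus wild type, of the 30 other mitochondrial genes, by list, with all 6 libraries and without mutant 2. With all libraries 23 lie above 0, and without mutant 2 13 do.

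Some neighbours could share reads with these genes, since no source used here says whether counting used strand. Atp5j and Gabpa run in opposite directions and share 397 exon bases in GENCODE, and Tomm70a shares 41 with Nit2. The ratio of Gabpa to Atp5j was 1.16, 0.826 and 1.28 in the mutants, against 1.27, 1.22 and 1.24 in wild type. It was lowest in mutant 2, and the groups overlapped (exact permutation p = 0.4). Cox17 shares 257 bases with Gm21987 on the same strand. Atp5o shares 356 with the antisense gene Gm15976 and 346 with the antisense gene D430001F17Rik. It also shares 243 with a second annotated entry named Atp5o on the same strand. None of these has a row of its own. The annotated genes Prdx5 and Trmt112 share 409 exon bases on opposite strands. Aldh3b1, which lies 717 bases from Ndufs8, averaged 89.7 over the 6 libraries. Processed pseudogenes are common for short respiratory chain genes, so counts of Ndufb4, Cox17, Atp5j and Atp5o are uncertain to the extent that such copies shared reads.

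The makeup of the tissue was checked with markers whose rows fit their names. All 4 neural markers, Hes1, Olig2, Olig1 and Gap43, were detected, with a summed count of 11260 to 14106 in mutants and 10184 to 10867 in wild type. Their log2 differences were above 0 in 4 of 4, and Gap43, a growth-cone protein of young neurons, had 0.30 (limma adjusted p = 0.33). For Gap43 every mutant lay above every wild-type embryo, against 8.69% of all rows. Without mutant 2, 3 neural markers were above 0 and Hes1 stood at -0.19, and their median was 0.13 in place of 0.34. Cldn5, a tight-junction gene of endothelium and the 1 endothelial marker that could be read, held 1491, 1209 and 1719 in the mutants, against 2403, 2070.1 and 2417 in wild type. All mutant values of Cldn5 lay below all wild-type values, against 10.4% of all rows. Its log2 difference was -0.65 (limma adjusted p = 0.32) and -0.52 without mutant 2. Snai2 and Tbx1, listed together for neural crest and mesenchyme, summed to 2649 to 3093 in mutants and 2950.3 to 3958 in wild type. Tbx1 is not read here as a marker of neural crest. Snai2 had a log2 difference of 0.06. Tbx1 had -0.53 (limma adjusted p = 0.40), and -0.52 without mutant 2, and its groups overlapped. The epithelial markers Trp63, Cldn1 and Ovol1 summed to 1625 to 2680.2 in mutants and 1547 to 1993 in wild type, with 3 above 0. The muscle and heart list summed to 10553 to 11098 in mutants and 10579 to 11704 in wild type, nearly all of it from Ppp1r2, a phosphatase inhibitor gene found in most tissues. No marker was called, none of these lists had a sum of 0 in any library, and the part of tissue makeup in the values of the mitochondrial genes was not tested.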

How the data were processed

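The authors deposited 1 table of normalized signal, a scaled read count for every gene row in 3 mutant and 3 wild-type libraries. The submitters' processing notes name CASAVA 1.7, bedtools and mm9, with no role for each. The counting rule, the strand setting and the annotation were not given in the sources used here. In each library every value was a whole multiple of 1 step, and dividing by it recovered whole reads for 100% of values (tolerance 0.001). Another 12 unnamed and 5 summary columns were left unused.

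Rows averaging 10 or more (13329) were log2-transformed after adding 1 and tested in limma 3.58.1 (R 4.3.3, trend on, two-sided), with Benjamini-Hochberg adjustment and a threshold of 0.05. On this scale the differences of low rows come out too small. The recovered reads went into edgeR 4.0.16 (quasi-likelihood test) and DESeq2 1.42.0 as alternatives, beside other scalings, filters, pseudocounts, weights and left-out libraries. The limma step was tested on simulated data. Symbols were matched to GRCm38 annotation (14324 directly, 1288 by an older symbol, 122 unmatched), which is not the authors' build; no coordinates were converted. Transcript lengths are medians of principal transcripts in GENCODE vM21, and gene positions and promoters come from RefSeq GRCm38.p6. Libraries held 46170743 to 82067578 reads, and each group has 3 embryos, which limits the precision of its mean.

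The genes, lists and tests were chosen with earlier results of these data known. The limits of the stretches where names fit were set from the row levels. All 10 genes are named, with up to 3 of smallest p from each other list and annotated neighbours within 1 kb. Deviations of same-numbered embryos of the 2 groups correlated at -0.045 to 0.059, and those of differently numbered embryos at -0.0645 to 0.0553. With 3 embryos a group this cannot tell whether the numbers mark pairs, and the main fit used no pairing.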

Additional observations from a re-analysis of the deposited data

How the results depend on the processing

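None of the 10 genes was called under any alternative run, and the smallest adjusted p of any of them was 0.23. Of 168 values of single genes under alternatives, 6 changed sign: Cox8a with quantile normalization (-0.054), without mutant 1 (-0.38) and without wild type 1 (-0.18), Ndufs8 with array quality weights (-0.0036) and without mutant 2 (-0.0020), and Atp5j without mutant 2 (-0.019). Leaving out each library in turn gave -0.38 to 0.31 for Cox8a, -0.0020 to 0.13 for Ndufs8 and -0.019 to 0.18 for Atp5j. Ndufb4 ranged from 0.16 to 0.56 and Cox17 from 0.15 to 0.32. Among all rows tested, 3 were called. Quantile normalization, equal medians and an adjusted p below 0.1 gave 5 each, no trend 0, array quality weights 60 and DESeq2 155; leaving out each library gave 0 to 14, with 14 without mutant 1 or mutant 2, 6 without mutant 3 and 0 without wild type 2 or 3. The cause was not tested. With the replicate block 3 rows and no gene of the 10 were called. Correlations of same-numbered embryos were -0.045, -0.0003 and 0.059, which cannot tell whether the numbers mark pairs. A minimum mean of 50 leaves out the rows named Prdx5 and Cox8a. Without those rows the median of the remaining 8 was 0.11, an alternative chosen after seeing the data. With 3 embryos a group, intervals such as that of Cpt1a (-0.31 to 0.93) leave sizeable differences undetectable in either direction.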
